A study of Mus musculus with 14 samples.

Results

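Enzymes that conjugate or oxidise reactive small molecules were followed across mouse small cell lung cancer cells. The members were all rows of the count table whose symbol begins with Gst followed by one of the class letters a, k, m, o, p or t and a digit, or with Aldh, Akr or Ugt and a digit. The rule found 78 of 32926 gene symbols: 20 glutathione transferases, 20 aldehyde dehydrogenases, 17 aldo-keto reductases and 21 UDP-glycosyltransferases. Poly(A) RNA was sequenced in 14 libraries of cell lines derived from tumours of CGRPCreER/+;Rbf/f;P53f/f;Ptenf/f adult mice of mixed strain given TM, in which the calcitonin gene promoter (CGRP) drives Cre in neuroendocrine cells, and all lines were grown in Hites medium. There were 3 non-neuroendocrine (Non-NE) and 3 neuroendocrine (NE) libraries, and 8 libraries labelled OE_YAP5SA, whose genotype adds Rosa26rtTA and Tet-onYAP5SA, taken on days 0, 3, 7 and 21 with 2 per day. These are called YAP5SA cells here, and at day 0 they held neuroendocrine markers at the level of NE cells or above. YAP5SA is a mutant of the transcriptional coactivator YAP that escapes phosphorylation by the Hippo pathway. The labels of day 0 replicate 1 list no transgene, and the genotype number given after P differs between libraries without the transgene. There was no line without the transgene at days 3, 7 and 21, so YAP5SA and time in culture cannot be told apart. The labels do not say that replicates were separate cultures or animals, so p-values measure the spread between these libraries.

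Glutathione transferases join glutathione to electrophiles, and their classes are named by Greek letters. Aldehyde dehydrogenases oxidise aldehydes to acids, and ALDH1A1, ALDH1A2 and ALDH1A3 make retinoic acid from retinal. Aldh1a7 is a rodent paralogue of Aldh1a1 that is grouped with them by sequence and is not known as a retinal dehydrogenase. Aldo-keto reductases reduce aldehydes and ketones with NADPH, and UDP-glycosyltransferases add sugars, mostly glucuronic acid, to drugs, bilirubin and steroids. In the lung these enzymes are best known from the club cells of the airway, and aldehyde dehydrogenase activity is widely used to sort cancer cells.

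Library totals ran from 6730816 to 10659524 counts. Values are in CPM, which are counts relative to the library total after TMM scaling over all libraries. Where a group has no read for a gene, 3 counts summed over its libraries are taken as the limit, which is 0.104 to 0.152 CPM. For none of the 32926 genes did NE replicate 2 exceed day 0 replicate 1, and over 11829 genes it differed from a random 85.7% of that library by no more than sampling noise (variance of the deviations 1.02). The 2 share their reads, so NE and day 0 are not independent groups. Yap1 stood at 134.5, 257 and 226 CPM in Non-NE libraries, against 19.2, 8.20 and 11.6 CPM in NE libraries. In YAP5SA cells it was 7.87 and 7.13 CPM at day 0, 1233 and 1063 CPM at day 3, 734 and 793 CPM at day 7 and 207 and 219 CPM at day 21. The summed level of 8 neuroendocrine markers was 58.7 to 413 CPM in Non-NE libraries and 2890 to 3920 CPM in NE libraries, and Calca, the gene of the promoter that drives Cre, was at 0 in both. Ncam1 made up nearly all of the Non-NE sum and went the other way, averaging 271 CPM in Non-NE and 36.1 CPM in NE libraries. The other 7 markers summed to 0.992 to 2.55 CPM in Non-NE libraries and 2852 to 3863 CPM in NE libraries. The Non-NE libraries also held fibroblast markers: 7 of 8 were detected there, summed at 10500 to 22700 CPM and with Thy1 at 0, against 2.99 to 7.87 CPM in NE libraries. Epithelial markers were 4.96 to 31.3 CPM in Non-NE libraries and 2120 to 2970 CPM in NE libraries. At day 21 the fibroblast markers summed to 46.7 to 51.6 CPM and the epithelial ones to 3010 to 3090 CPM, while leukocyte markers reached 111 to 135 CPM with Ptprc at 0. The neuroendocrine sum was 3920 to 4130 CPM at day 0, 1790 to 2100 CPM at day 3, 843 to 929 CPM at day 7 and 703 to 715 CPM at day 21. That of 4 alveolar type I markers was 12.1 to 12.7, 946 to 1260, 4760 to 5220 and 2780 to 3190 CPM on these days. Of 3 club cell markers, summed at 0.102 to 0.305 CPM at day 7 and 22.0 to 24.2 CPM at day 21, Scgb3a2 was at 0 on all days. The part of these markers in the results was not tested. In bulk RNA, fewer expressing cells and less RNA per cell cannot be told apart.

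The promoters of 6 members described below are shown first. Some are ALDH1A genes that moved in opposite directions or were at 0 in one group. The others are glutathione transferases and an aldo-keto reductase that rose over the days. The part of these promoters in the results was not tested. Each is the 250 bases before the RefSeq start on GRCm38.p6, written 5′ to 3′ along the gene. Capitals mark matches on either strand to the antioxidant response element core bound by NRF2 (TGACNNNGC), the AP-1 site (TGANTCA, which reads alike on both strands) or the TEAD site (GGAATG). A stretch of letters can match the first and the second motif together.
Aldh1a7 (chr19:20727557-20727806, minus strand): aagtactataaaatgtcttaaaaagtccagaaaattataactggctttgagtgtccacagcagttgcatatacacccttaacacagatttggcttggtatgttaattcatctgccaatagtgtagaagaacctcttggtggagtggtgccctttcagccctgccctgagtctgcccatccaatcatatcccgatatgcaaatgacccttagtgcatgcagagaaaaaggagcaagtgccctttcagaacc
Aldh1a1 (chr19:20492333-20492582, plus strand): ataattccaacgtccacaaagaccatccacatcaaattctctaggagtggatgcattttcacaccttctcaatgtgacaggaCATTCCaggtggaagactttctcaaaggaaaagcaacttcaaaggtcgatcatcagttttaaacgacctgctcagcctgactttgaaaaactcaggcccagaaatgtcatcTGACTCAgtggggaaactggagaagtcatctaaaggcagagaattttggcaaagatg
Aldh1a2 (chr9:71215539-71215788, plus strand): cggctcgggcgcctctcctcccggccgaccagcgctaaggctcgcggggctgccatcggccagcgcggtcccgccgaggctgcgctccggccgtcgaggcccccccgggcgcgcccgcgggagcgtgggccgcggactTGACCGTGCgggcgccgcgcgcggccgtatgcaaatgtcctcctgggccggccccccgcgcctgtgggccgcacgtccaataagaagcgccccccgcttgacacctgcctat
Gsta3 (chr1:21240335-21240584, plus strand): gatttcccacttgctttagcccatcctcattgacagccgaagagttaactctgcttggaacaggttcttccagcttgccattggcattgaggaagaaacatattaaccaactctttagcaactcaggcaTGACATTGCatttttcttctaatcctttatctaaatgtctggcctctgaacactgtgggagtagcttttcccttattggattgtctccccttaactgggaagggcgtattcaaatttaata
Gsto1 (chr19:47854723-47854972, plus strand): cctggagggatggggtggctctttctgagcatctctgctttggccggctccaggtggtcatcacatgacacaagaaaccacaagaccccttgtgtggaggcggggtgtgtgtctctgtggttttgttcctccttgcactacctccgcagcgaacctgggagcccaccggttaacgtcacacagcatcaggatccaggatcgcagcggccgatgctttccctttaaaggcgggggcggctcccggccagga
Akr1c14 (chr13:4059341-4059590, plus strand): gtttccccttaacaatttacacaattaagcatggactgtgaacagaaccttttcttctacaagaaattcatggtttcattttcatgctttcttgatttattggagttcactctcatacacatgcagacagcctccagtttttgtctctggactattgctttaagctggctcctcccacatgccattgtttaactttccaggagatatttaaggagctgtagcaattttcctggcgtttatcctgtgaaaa
In the windows shown, the Aldh1a1 promoter held an AP-1 match beginning 57 bases before the start and a TEAD match on the opposite strand beginning 168 bases before it. The Gsta3 promoter held an antioxidant response element core beginning 121 bases before the start, and that of Aldh1a2 held one 112 bases before it. Aldh1a7, Gsto1 and Akr1c14 held none of these letters in the window. The RefSeq start of Akr1c14 lies within the longer GENCODE gene. RefSeq promoters were found for 66 member genes, with 75 start sites. The antioxidant response element core occurred in 6 of these 75 windows (8%) and in 10.2% of 32851 windows of all genes. AP-1 letters occurred in 9 windows (12%), against 6.75% of all windows, and TEAD letters in 8 windows (10.7%), against 12.6% of all. These are matches of letters, not binding.

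Most of the 78 members were low. A mean of at least 1 CPM in some group was reached by 44 of them, at least 10 CPM by 35 and at least 100 CPM by 14. The 16 members at 0 in every library were the 9 UGT2 genes, 6 of the UGT1A genes and Gsta2. Between Non-NE and NE cells 37 members passed the filter on low counts, of which 10 were higher and 11 lower in Non-NE by edgeR's quasi-likelihood test at an adjusted p under 0.05. That is 56.8% of the members tested, against 42.8% of all genes tested in this comparison, of which 20% were higher and 22.8% lower. The median size of their log2 changes was 1.93, the same with the gene at 0 set to its bound, and that of all genes was 0.80. Without NE replicate 2, 19 members were called. All genes called ran from 4483 to 5570 with each library left out, against 5554 in the main fit. In YAP5SA cells 40 members were tested. At day 3 against day 0, 14 were higher and 11 lower, against 48.6% of all genes called, 26.2% higher and 22.4% lower. At day 7, 14 were higher and 17 lower, against 71% of all genes, 37.2% higher and 33.8% lower. At day 21, 19 were higher and 12 lower, 77.5% of the members tested and close to the 71.7% called among all genes, 37.7% higher and 34% lower. Without day 0 replicate 1 the called members numbered 22, 28 and 29 on the 3 days. Those fits leave 1 library at day 0, and their counts are not set against those of all genes. Day 7 against day 3 gave 12 higher and 15 lower members against 55.6% of all genes, 29.5% higher and 26.1% lower. Day 21 against day 7 gave 17 higher and 7 lower members, against 50.3% of all genes, 26.1% higher and 24.2% lower. The members summed to 1985 to 2338 CPM in Non-NE libraries and 2151 to 2809 CPM in NE libraries, so the total overlapped while single genes were far apart.

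**Figure D1:**
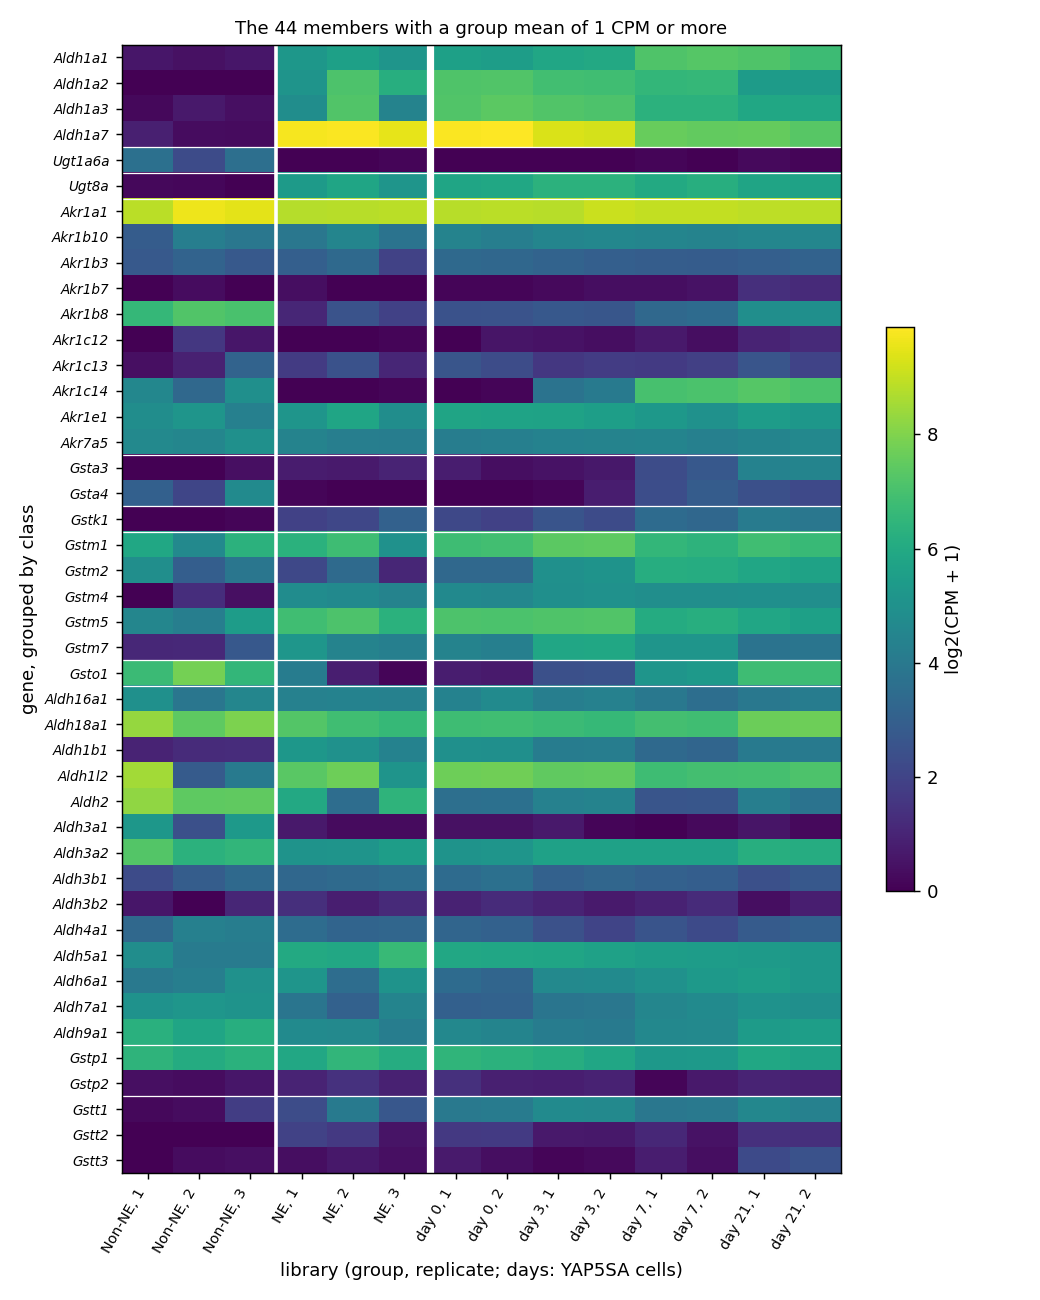
Heat map of log2(CPM + 1) for the 44 members with a mean of at least 1 CPM in some group (rows, grouped by class) in the 14 libraries (columns). Aldh1a7 is bright in NE and early YAP5SA libraries and dark in the 3 Non-NE libraries, while Akr1a1 is bright in all 14.

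The 4 ALDH1A genes were expressed in NE cells and close to 0 in Non-NE cells. Their summed level was 1.49, 1.22 and 1.06 CPM in Non-NE libraries, against 968, 1231 and 867 CPM in NE libraries. Aldh1a7 made up most of it, and per kilobase of exon it was the highest member in NE cells at 404 CPM per kb, ahead of Akr1a1 at 164 and Gstm5 at 86.1 CPM per kb. It had 0.826, 0.244 and 0.212 CPM in Non-NE libraries, against 871, 897 and 739.5 CPM in NE libraries. The groups did not overlap, and Non-NE cells were 2127-fold lower (log2 change -11.05, SE 0.47, edgeR adjusted p = 2.59e-05). Aldh1a1, the retinal dehydrogenase of adult tissues, had 0.496, 0.366 and 0.531 CPM in Non-NE libraries, against 36.1, 47.7 and 35.04 CPM in NE libraries (85.3-fold lower, edgeR adjusted p = 4.47e-05). Aldh1a2, the main retinoic acid synthase of the embryo, had 0 counts in all 3 Non-NE libraries, against 33.3, 139.8 and 72.5 CPM in NE libraries. At the floor of 3 counts over the group it was at least 629-fold lower in Non-NE cells (edgeR adjusted p = 0.00162). Aldh1a3, also a retinal dehydrogenase, had 0.165, 0.61 and 0.318 CPM in Non-NE libraries, against 27.6, 146.7 and 20.3 CPM in NE libraries (171.5-fold lower, edgeR adjusted p = 0.00216). Every NE library exceeded every Non-NE library for each of the 4 genes, but NE replicate 2 stood above the other two for Aldh1a2 and Aldh1a3.

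Under YAP5SA the 2 neighbours on chromosome 19 moved in opposite directions. On mm10, Aldh1a7 spans 20692953 to 20727562 (minus strand) and Aldh1a1 spans 20492715 to 20643465 (plus strand). Aldh1a7 had 905 and 944 CPM at day 0, 632 and 609 CPM at day 3, 189.8 and 182 CPM at day 7 and 186 and 157 CPM at day 21. It fell at each day against day 0, and day 21 was 5.31-fold lower (log2 change -2.41, SE 0.09, edgeR adjusted p = 1.95e-18). Day 21 against day 7 was not called (log2 change -0.11, edgeR adjusted p = 0.302) except without day 21 replicate 1 (log2 change -0.25, adjusted p = 0.0171). Aldh1a1 had 48.0 and 44.7 CPM at day 0, 56.1 and 60.7 CPM at day 3, 141 and 152 CPM at day 7 and 143 and 109.9 CPM at day 21. It rose 2.77-fold at day 21 against day 0 (log2 change 1.47, SE 0.10, edgeR adjusted p = 1.94e-12), and its small rise at day 3 missed the threshold without day 0 replicate 2 (adjusted p = 0.125) or day 3 replicate 2 (adjusted p = 0.119). The open reading frames of the 2 genes are 91.6% identical over 1506 bases each. Of the 50-base windows of their transcripts, 3.06% of those of Aldh1a1 and 7.49% of those of Aldh1a7 occur in the other gene, so most windows tell them apart.

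Aldh1a2 and Aldh1a3 fell with time. Aldh1a2 had 141 and 146 CPM at day 0, 117.5 and 114 CPM at day 3, 93.3 and 95.85 CPM at day 7 and 41.4 and 42.3 CPM at day 21, 3.37-fold lower at day 21 than at day 0 (log2 change -1.75, SE 0.08, edgeR adjusted p = 2.47e-16). Aldh1a3 had 146 and 168 CPM at day 0, 148 and 139 CPM at day 3, 80.4 CPM in both libraries at day 7 and 58.8 and 56.4 CPM at day 21, 2.69-fold lower at day 21 than at day 0 (edgeR adjusted p = 5.12e-14). Its libraries overlapped between days 3 and 0, where the fall was called with library totals alone (log2 change -0.20, adjusted p = 0.0337), and were apart from day 7. None of the 4 genes came near the Non-NE level: at day 21 Aldh1a7 was 430-fold and Aldh1a1 265-fold above Non-NE cells in the fit of all 14 libraries, where edgeR adjusted p was 4.47e-09 for Aldh1a7 and 2.4e-09 for Aldh1a1.

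**Figure D2:**
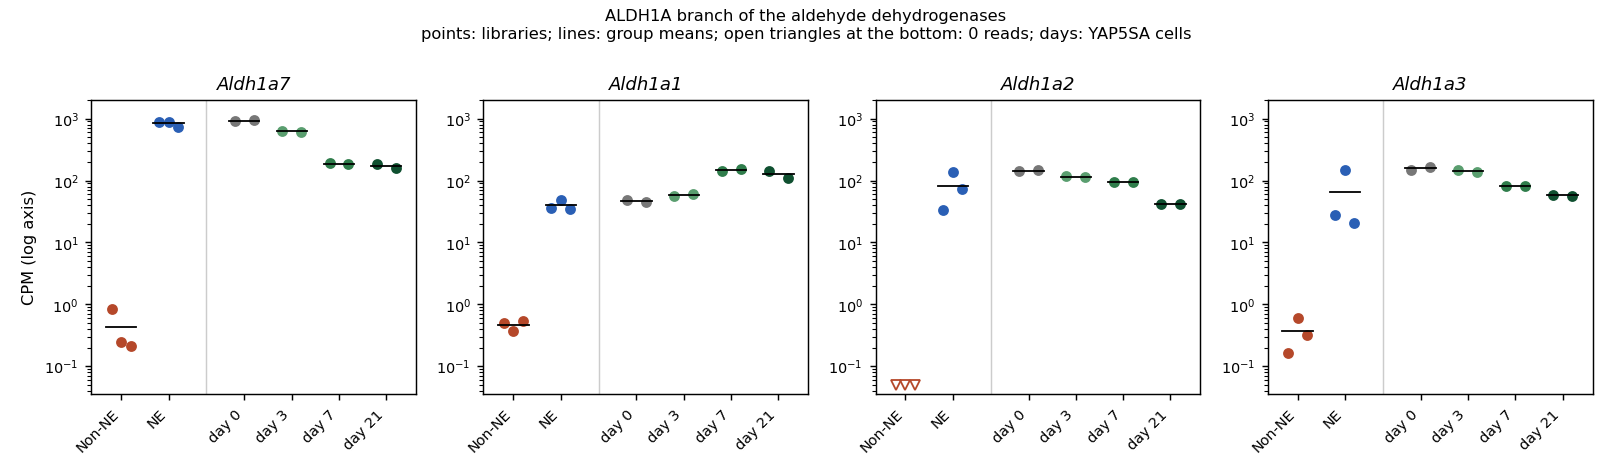
CPM on a log axis for Aldh1a7, Aldh1a1, Aldh1a2 and Aldh1a3 in Non-NE, NE and YAP5SA libraries by day, with points for libraries, lines for group means and open triangles for 0 reads. All 4 genes are below 1 CPM in the 3 Non-NE libraries, and from day 0 to day 21 Aldh1a1 goes up while the others go down.

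Of the 16 other aldehyde dehydrogenases 13 were tested between Non-NE and NE cells, with 5 higher and 2 lower in Non-NE, or 53.8% against the 42.8% called among all genes. The 2 lower ones were mitochondrial. Aldh1b1, which oxidises acetaldehyde, had 0.992, 1.34 and 1.38 CPM in Non-NE libraries, against 36.7, 31.3 and 19.7 CPM in NE libraries, 23.8-fold lower in Non-NE (log2 change -4.57, SE 0.40, edgeR adjusted p = 0.000236). Aldh5a1, the succinic semialdehyde dehydrogenase of GABA breakdown, had 28.1, 16.4 and 16.2 CPM in Non-NE libraries, against 63.9, 59.7 and 99.2 CPM in NE libraries (3.80-fold lower, edgeR adjusted p = 0.00361). Both also fell in YAP5SA cells at day 21 against day 0. Aldh1b1 was lowest at day 7 with 9.45 and 8.44 CPM, and had 15.9 and 15.6 CPM at day 21, against 30.5 and 29.1 CPM at day 0.

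Among the higher ones, Aldh3a1 and Aldh3a2 lie next to each other on chromosome 11. Aldh3a1, a cytosolic enzyme for lipid and aromatic aldehydes, had 36.4, 4.40 and 38.7 CPM in Non-NE libraries, against 0.579, 0.219 and 0.213 CPM in NE libraries. It was 72.3-fold higher in Non-NE cells (log2 change 6.18, SE 1.01, edgeR adjusted p = 0.0032), and Non-NE replicate 2 was the lowest of the group. In the YAP5SA libraries it held 0 to 0.583 CPM and did not pass the filter on low counts. Aldh3a2, the fatty aldehyde dehydrogenase, had 149, 79.6 and 90.65 CPM in Non-NE libraries, against 32.4, 33.5 and 44.0 CPM in NE libraries (2.81-fold higher, edgeR adjusted p = 0.00612). It rose 2.12-fold at day 21 against day 0, with 73.1 and 68.2 CPM at day 21, against 33.1 and 34.6 CPM at day 0 (edgeR adjusted p = 7.57e-11).

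Aldh9a1, which acts in carnitine synthesis, had 76.0, 55.3 and 72.1 CPM in Non-NE libraries, against 25.2, 24.2 and 17.0 CPM in NE libraries (2.97-fold higher, edgeR adjusted p = 0.00282). In YAP5SA cells it first fell at day 3 and then rose, with 42.4 and 44.95 CPM at day 21, against 23.5 and 21.3 CPM at day 0 (1.98-fold higher, edgeR adjusted p = 5.64e-09). Aldh18a1, which makes the precursor of proline, had 318, 171 and 247 CPM in Non-NE libraries, against 151, 114 and 96.6 CPM in NE libraries (log2 change 0.98, edgeR adjusted p = 0.0282). The groups did not overlap, but the call was lost without NE replicate 2 (adjusted p = 0.0866), NE replicate 3 (0.0859), Non-NE replicate 1 (0.0675) or Non-NE replicate 3 (0.0671), and with library totals (0.0819). At day 21 Aldh18a1 rose 1.82-fold, with 202 and 208 CPM, against 113 and 116 CPM at day 0 (edgeR adjusted p = 8.1e-11).

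Aldh7a1, which acts in lysine breakdown, was higher on each later day than at day 0. It had 7.22 and 7.59 CPM at day 0, 13.4 and 14.15 CPM at day 3, 22.3 and 25.3 CPM at day 7 and 31.8 and 29.35 CPM at day 21 (4.19-fold over day 0, log2 change 2.07, SE 0.14, edgeR adjusted p = 6.48e-13). Its last step, day 21 against day 7 (log2 change 0.37, edgeR adjusted p = 0.00885), was lost without day 7 replicate 1 (adjusted p = 0.138) or day 21 replicate 1 (0.0612) and with DESeq2 (0.0513). The Non-NE libraries held 31.9, 35.7 and 32.9 CPM, against 13.3, 7.44 and 20.98 CPM in NE libraries. That difference was called (edgeR adjusted p = 0.0398) but not without NE replicate 1, NE replicate 2 or any one of the Non-NE libraries (adjusted p = 0.0597 to 0.103), nor with library totals (0.082). Aldh6a1, the methylmalonate semialdehyde dehydrogenase of valine breakdown, rose likewise, with 9.94 and 8.24 CPM at day 0, 24.2 and 25.4 CPM at day 3, 31.2 and 38.6 CPM at day 7 and 44.2 and 36.2 CPM at day 21 (4.49-fold over day 0, edgeR adjusted p = 5.91e-13). Its Non-NE and NE libraries overlapped.

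Aldh2, the main acetaldehyde dehydrogenase of mitochondria, had 299, 174 and 176 CPM in Non-NE libraries, against 61.1, 10.7 and 84.0 CPM in NE libraries. The groups did not overlap, yet the difference just missed the threshold (log2 change 2.01, SE 0.68, edgeR adjusted p = 0.05). It passed without NE replicate 2 (log2 change 1.56, adjusted p = 0.0208) or NE replicate 3 (2.57, adjusted p = 0.0476), with the replicate number as a block (2.38, adjusted p = 0.037), with the DESeq2 test (adjusted p = 0.00608) and in the fit of all 14 libraries (0.00689). That last fit takes a smaller spread for these libraries (coefficient of variation 0.293) than they showed alone (0.399). In YAP5SA cells Aldh2 had no steady course: 11.2 and 11.6 CPM at day 0, 19.5 and 20.4 CPM at day 3, 5.08 and 5.29 CPM at day 7 and 17.7 and 12.6 CPM at day 21. Day 3 was higher and day 7 lower than day 0, and the small rise at day 21 (edgeR adjusted p = 0.0155) was lost without day 0 replicate 1 (adjusted p = 0.0821), day 0 replicate 2 (0.052) or day 21 replicate 1 (0.402), and with library totals (0.0943).

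Aldh1l2, a mitochondrial enzyme of folate metabolism, had libraries far apart in both the Non-NE and the NE group. It had 363, 6.11 and 15.9 CPM in Non-NE libraries, against 163, 207 and 34.0 CPM in NE libraries, and the difference was not called (edgeR adjusted p = 0.947). Without Non-NE replicate 1 it was lower in Non-NE (log2 change -3.63, adjusted p = 0.0278). At day 21 it had 123 and 139.6 CPM, against 206 and 212 CPM at day 0 (1.57-fold lower, edgeR adjusted p = 3.53e-08). Aldh3b1 and Aldh16a1 were lower at day 21 than at day 0 by 2.16-fold and 1.41-fold (edgeR adjusted p = 1.05e-05 for Aldh3b1 and 0.00369 for Aldh16a1), and neither was called between Non-NE and NE. Aldh4a1, the proline-breakdown counterpart of Aldh18a1, fell at days 3 and 7 and was not called at day 21. A share of 30.03% of its transcript windows also lies in Gm21969, which makes its level uncertain.

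Among the 20 glutathione transferases the classes did not move together. The omega enzyme Gsto1, which reduces dehydroascorbate, had 106, 224 and 91.8 CPM in Non-NE libraries, against 16.8, 0.765 and 0.106 CPM in NE libraries. It was 23.0-fold higher in Non-NE cells (log2 change 4.52, SE 1.39, edgeR adjusted p = 0.0369). The NE libraries were far apart, and the call was lost without NE replicate 2 or any one Non-NE library (adjusted p = 0.0579 to 0.0862). Under YAP5SA the gene climbed at every step, with 0.75 and 0.648 CPM at day 0, 4.37 and 4.69 CPM at day 3, 34.7 and 39.0 CPM at day 7 and 111 and 109.7 CPM at day 21. Day 21 was 158-fold above day 0 (log2 change 7.30, SE 0.17, edgeR adjusted p = 3.45e-22). Against Non-NE cells the day 21 level was not called different (log2 change -0.35, SE 0.97, edgeR adjusted p = 0.779), with libraries that overlapped.

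The alpha enzymes Gsta3 and Gsta4 also rose under YAP5SA. Gsta4, which conjugates the lipid peroxidation product 4-hydroxynonenal, had 7.11, 3.17 and 25.5 CPM in Non-NE libraries, against 1 count in NE replicate 1 and 0 in the other NE libraries. The ratio of the pooled levels was 377, with a 95% counting interval of 67.2 to 15000 (edgeR adjusted p = 0.0033). It was at 0 on day 0, at 0.0972 and 0.735 CPM on day 3, 4.07 and 6.40 CPM on day 7 and 4.29 and 3.58 CPM on day 21, at least 28.2-fold higher at day 21 than at day 0 (edgeR adjusted p = 2e-08). Gsta3, which detoxifies aflatoxin epoxide in mice, was highest at day 21. It had 0.75 and 0.278 CPM at day 0, 0.389 and 0.551 CPM at day 3, 3.96 and 5.59 CPM at day 7 and 19.9 and 21.02 CPM at day 21 (39.6-fold over day 0, log2 change 5.31, SE 0.28, edgeR adjusted p = 5.91e-15). The club cell markers also stood highest at day 21, and their part in this result was not tested. The Non-NE libraries held 0, 0 and 0.318 CPM of Gsta3 and the NE libraries 0.676, 0.656 and 0.959 CPM, under the filter on low counts. The antioxidant response element core shown above for Gsta3 was also in windows of Aldh1a2 and Gstm5, lower at day 21 than at day 0, and of Aldh9a1, higher. It was also in those of Gstm7, which peaked at day 3, and Akr1cl, which was near 0. Its part in these courses was not tested.

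The kappa enzyme Gstk1, of mitochondria and peroxisomes, had 0, 0 and 0.106 CPM in Non-NE libraries, against 2.80, 3.28 and 7.35 CPM in NE libraries. The pooled NE level was 105 times that of Non-NE, with a counting interval of 18.5 to 4170 (edgeR adjusted p = 0.00203). In YAP5SA cells it rose 5.01-fold by day 21, with 16.3 and 14.1 CPM at day 21, against 3.37 and 2.78 CPM at day 0 (edgeR adjusted p = 7.96e-11).

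The mu genes form a cluster on chromosome 3, in the order Gstm5, Gstm7, Gstm2, Gstm1 and Gstm4 for those above 1 CPM, from 107895821 to 108044894 on mm10. Of the 5 tested, 3 were lower and none higher in Non-NE cells by edgeR; for the other two the adjusted p was 0.145 (Gstm2) and 0.541 (Gstm1). In the fit of all 14 libraries Gstm2 was called higher in Non-NE (log2 change 1.79, edgeR adjusted p = 0.03). That fit takes a smaller spread for these libraries than the main fit does. The 3 calls are 60% of those tested, against 42.8% of all genes. Gstm4 had 0, 1.46 and 0.318 CPM in Non-NE libraries, against 27.3, 25.0 and 20.7 CPM in NE libraries (39.8-fold lower, edgeR adjusted p = 0.00385). Gstm5 had 22.0, 17.6 and 43.5 CPM in Non-NE libraries, against 114, 137.5 and 78.9 CPM in NE libraries (4.07-fold lower, edgeR adjusted p = 0.0072). Gstm7 had 1.16, 1.22 and 5.52 CPM in Non-NE libraries, against 35.8, 20.2 and 18.0 CPM in NE libraries (9.38-fold lower, edgeR adjusted p = 0.0105).

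In YAP5SA cells these neighbours took different courses. Gstm2 had 9.09 and 9.07 CPM at day 0, 30.5 and 32.8 CPM at day 3, 69.6 and 68.3 CPM at day 7 and 56.9 and 50.95 CPM at day 21 (6.02-fold over day 0, log2 change 2.59, SE 0.12, edgeR adjusted p = 3.05e-16). Gstm7 peaked early, with 20.2 and 18.3 CPM at day 0, 56.0 and 58.6 CPM at day 3, 34.4 and 35.1 CPM at day 7 and 12.6 and 13.5 CPM at day 21. It was 2.95-fold higher at day 3 (edgeR adjusted p = 2.14e-12) and 1.46-fold lower at day 21 (edgeR adjusted p = 0.000363) than at day 0. Gstm5 had 57.1 and 48.2 CPM at day 21, against 138 and 133.5 CPM at day 0 (2.54-fold lower, edgeR adjusted p = 2.82e-13). Gstm4 stayed between 22.6 and 30.6 CPM on all days, and its call at day 21 (log2 change 0.31, edgeR adjusted p = 0.0126) was lost without day 0 replicate 2 (adjusted p = 0.148) and with library totals in place of TMM (log2 change 0.16, adjusted p = 0.174). Gstm1 rose at day 3, fell at day 7 and was not called at day 21 (log2 change -0.07, edgeR adjusted p = 0.469; -0.21 and 0.022 with library totals), and 18.9% of its transcript windows lie in other genes.

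The pi enzyme Gstp1, the transferase most often studied in tumours, had 86.3, 66.2 and 78.8 CPM in Non-NE libraries, against 59.1, 88.8 and 69.0 CPM in NE libraries, with groups that overlapped (edgeR adjusted p = 0.885). In YAP5SA cells it fell to 37.1 and 39.5 CPM at day 7 and stood at 58.7 and 50.7 CPM at day 21, against 88.6 and 81.3 CPM at day 0 (1.53-fold lower at day 21, edgeR adjusted p = 5.98e-06). Its open reading frame is 98.1% identical to that of Gstp2 and 33.7% of its windows are shared, so the split of reads between them is uncertain. The theta enzyme Gstt1 had 0.165, 0.244 and 2.44 CPM in Non-NE libraries, against 3.86, 15.4 and 5.43 CPM in NE libraries. The libraries did not overlap, but the difference was not called (edgeR adjusted p = 0.0561). Gstt1 rose 1.35-fold and Gstt3 8.80-fold at day 21 against day 0 (edgeR adjusted p = 0.00378 for Gstt1 and 2.13e-07 for Gstt3), and Gstt3 averaged 4.13 CPM at day 21. Gstt2 was lower at days 3 and 7 than at day 0, when it averaged 2.19 CPM, and had 0 counts in Non-NE libraries.

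**Figure D3:**
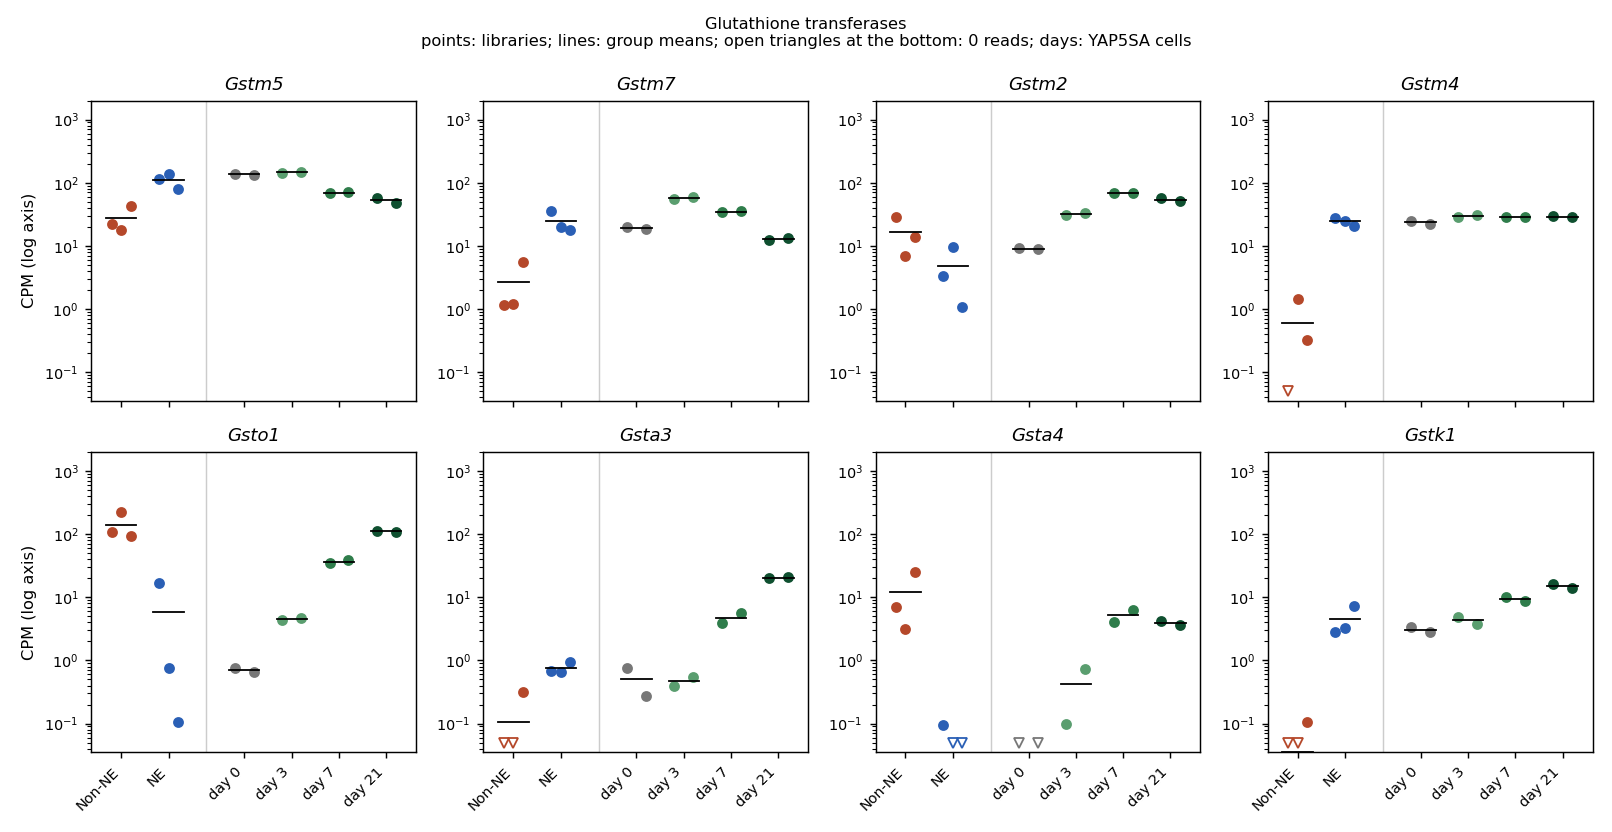
CPM on a log axis for 8 glutathione transferases in Non-NE, NE and YAP5SA libraries by day, with points for libraries, lines for group means and open triangles for 0 reads. Gsto1, Gsta3, Gsta4 and Gstk1 are higher at days 7 and 21 than at day 0, Gstm7 peaks at day 3, and Gstm4 is flat in YAP5SA cells and low in Non-NE cells.

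Among the 17 aldo-keto reductases 2 of 8 tested were higher in Non-NE cells and none was lower by edgeR, or 25% against the 42.8% called among all genes. Akr1a1, the aldehyde reductase, was abundant in every library, with 469, 790.3 and 714 CPM in Non-NE libraries, 436, 454 and 459.9 CPM in NE libraries and 453 to 552 CPM on all days. It was not called in Non-NE against NE (log2 change 0.51, edgeR adjusted p = 0.128) or at any day against day 0, but without Non-NE replicate 1 it was higher in Non-NE (log2 change 0.72, adjusted p = 0.021), and without day 3 replicate 1 it was higher at day 3 than at day 0 (log2 change 0.25, adjusted p = 0.0119). Per kilobase it was the highest member in Non-NE cells, at 239 CPM per kb, ahead of Akr1b8 at 82.8 and Gsto1 at 69.6 CPM per kb.

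Akr1b8, an aldose reductase-like enzyme, had 94.0, 146 and 132 CPM in Non-NE libraries, against 1.06, 4.81 and 2.77 CPM in NE libraries, 41.8-fold higher in Non-NE (log2 change 5.39, SE 0.56, edgeR adjusted p = 0.000526). Its neighbours on chromosome 6 did not follow: Akr1b10 and Akr1b3 overlapped between the groups (edgeR adjusted p = 0.518 for Akr1b10 and 0.977 for Akr1b3). In YAP5SA cells Akr1b8 rose late, with 4.59 and 4.81 CPM at day 0, 5.64 and 5.33 CPM at day 3, 9.05 and 9.86 CPM at day 7 and 28.8 and 29.2 CPM at day 21 (6.24-fold over day 0, edgeR adjusted p = 3.08e-14). Akr1b7 rose to 1.52 and 1.26 CPM at day 21, against 2 counts in all at day 0, a ratio of 15.0 with a counting interval of 3.78 to 129 (edgeR adjusted p = 3.33e-05).

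Akr1c14, an enzyme of steroid hormone reduction, was high in Non-NE cells and in YAP5SA cells from day 3 on, and at 0 or 1 count in each NE and day 0 library. It had 22.6, 9.16 and 29.3 CPM in Non-NE libraries, against 1 count in the 3 NE libraries together, a ratio of 596 with a counting interval of 106 to 23600 (edgeR adjusted p = 0.000632). In YAP5SA cells the 2 day 0 libraries held 1 count, and the gene then stood at 12.6 and 15.25 CPM at day 3, 127 and 134 CPM at day 7 and 153 and 134 CPM at day 21. The ratio of day 21 to day 0 was 3080, with a counting interval of 553 to 122000 (edgeR adjusted p = 1.86e-22). Day 21 was also 7.04-fold above Non-NE cells (log2 change 2.82, SE 0.39, edgeR adjusted p = 0.00015). Among the smaller changes, Akr7a5 was 1.26-fold higher and Akr1e1 1.31-fold lower at day 21 than at day 0 (edgeR adjusted p = 0.0165 for Akr7a5 and 0.00168 for Akr1e1). Akr1b3 was lower at day 7, and Akr1c13 at days 3 and 7, than at day 0 (edgeR adjusted p = 0.0145 for Akr1b3 and 0.00743 for Akr1c13 at day 7). Akr1c13 held 47 counts at day 3 and 48 at day 7, against 98 at day 0. A share of 24.2% of its transcript windows lies in Akr1c12, and 9.48% of those of Akr1b3 lie in other genes. The levels of both are thus uncertain.

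Most UDP-glycosyltransferases were at or near 0. Of the 21 genes, Ugt8a and Ugt1a6a alone reached 1 CPM in a group. Ugt8a, which makes the galactolipids of myelin and not drug conjugates, had 0.165, 0.122 and 0 CPM in Non-NE libraries, against 40.8, 55.9 and 34.3 CPM in NE libraries. The pooled NE level was 514 times that of Non-NE, with a counting interval of 142 to 4250 (edgeR adjusted p = 9.44e-05). In YAP5SA cells it was higher than day 0 at day 3, with 79.7 and 79.6 CPM, against 55.5 and 58.2 CPM at day 0 (1.39-fold, edgeR adjusted p = 4.87e-05), and not called at day 21 (53.9 and 51.3 CPM, edgeR adjusted p = 0.371). With library totals in place of TMM it was called lower at day 21 (log2 change -0.23, adjusted p = 0.0215). Ugt1a6a, which glucuronidates phenols, had 11.6, 3.79 and 11.3 CPM in Non-NE libraries, against 1 count in the 3 NE libraries, a ratio of 253 with a counting interval of 44.9 to 10000 (edgeR adjusted p = 0.00138). It stayed at 0 to 0.191 CPM in YAP5SA cells. A share of 52.1% of its windows lies in other genes, mostly the UGT1A genes that share its last exons. In Non-NE libraries Ugt1a6b held 7 counts and Ugt1a1 held 3, and 6 UGT1A genes were at 0 in every library. How reads in the shared exons were counted is not known. The levels of the UGT1A genes, including those at 0, are therefore uncertain.

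**Figure D4:**
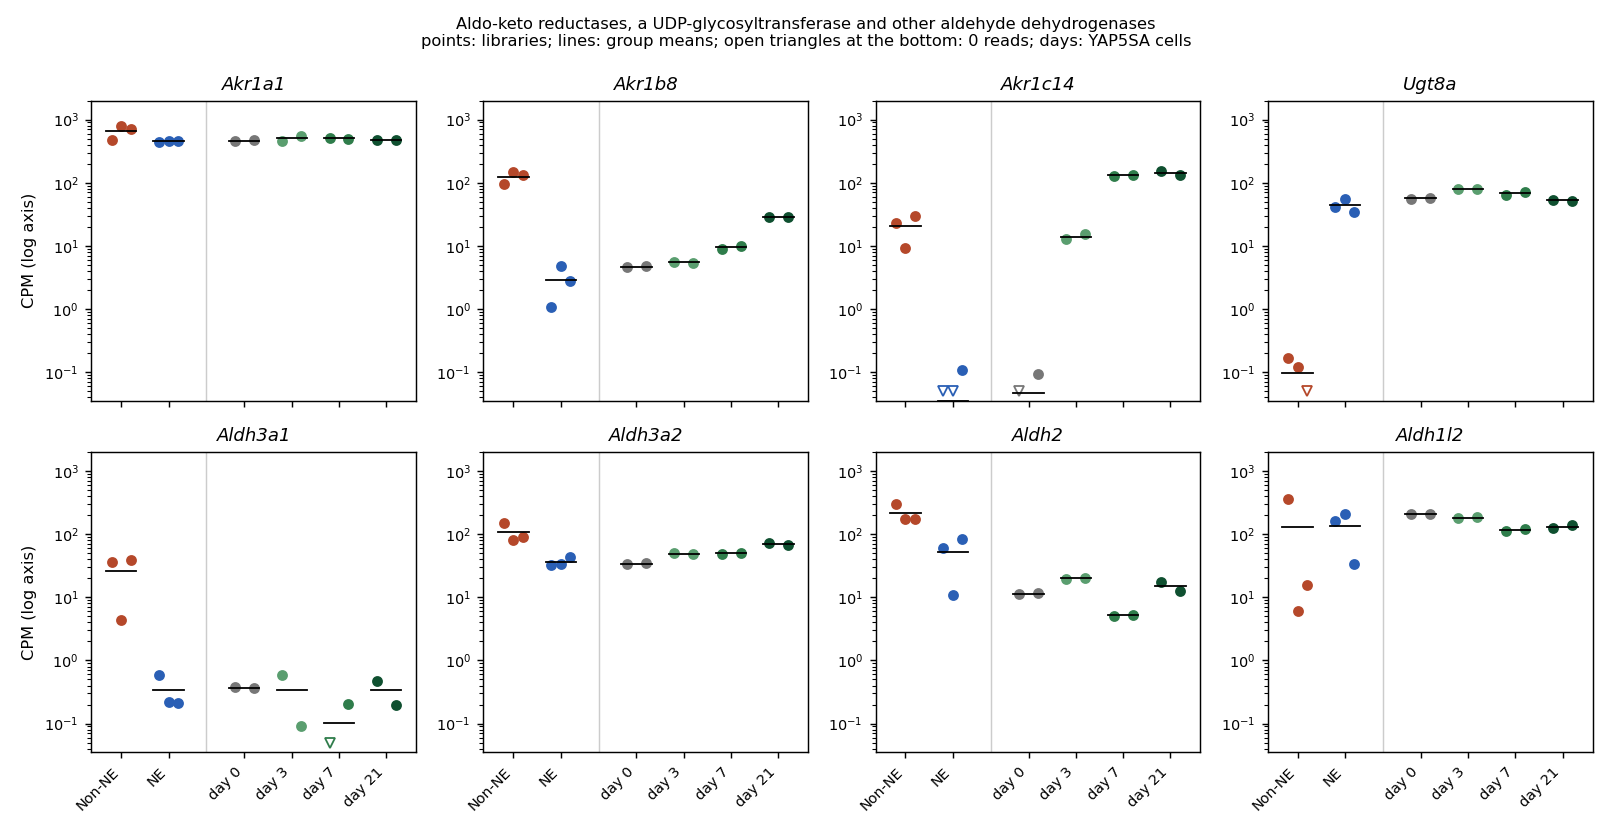
CPM on a log axis for 3 aldo-keto reductases, Ugt8a and 4 aldehyde dehydrogenases outside the ALDH1A branch in Non-NE, NE and YAP5SA libraries by day, with points for libraries, lines for group means and open triangles for 0 reads. Akr1c14 goes up over the days to above its Non-NE level, Aldh3a1 stays below 1 CPM in all YAP5SA libraries, and Aldh1l2 has 1 Non-NE library at 363 CPM.

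Day 21 of YAP5SA was set against Non-NE cells in the fit of all 14 libraries, where 44 members were tested. At day 21, 18 were higher and 7 lower, and 53% of all genes were called, 29.7% higher and 23.3% lower. The coefficient of variation of this fit was 0.293, against 0.399 in the Non-NE and NE libraries alone. It thus takes a smaller spread for Non-NE libraries than they showed, and its p-values can be too small. The 4 ALDH1A genes, Ugt8a, Gstk1, Gsta3, Akr1c14, 4 mu and 3 theta transferases, Akr1b7, Aldh1b1 and Aldh5a1 were higher at day 21. Ugt8a had 53.9 and 51.3 CPM at day 21, against 0.165, 0.122 and 0 CPM in Non-NE libraries (edgeR adjusted p = 2.13e-08). The lower ones were Aldh2, Aldh3a1, Akr1b8, Ugt1a6a, Aldh9a1, Aldh4a1 and Gstp1. Aldh2 had 17.7 and 12.6 CPM at day 21, against 299, 174 and 176 CPM in Non-NE libraries (14.2-fold lower, edgeR adjusted p = 0.000939), and Akr1b8 had 28.8 and 29.2 CPM, against 94.0, 146 and 132 CPM (4.28-fold lower, edgeR adjusted p = 0.00117). The calls of Gstm2, Gstm5, Gstp1, Aldh9a1, Aldh4a1 and Aldh5a1 were each lost without some library. Without day 21 replicate 1, for instance, Gstm2 had an adjusted p of 0.147, Gstm5 0.164, Gstp1 0.0961, Aldh9a1 0.114, Aldh4a1 0.0941 and Aldh5a1 0.0768, and 18 members were called in all.

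**Figure D5:**
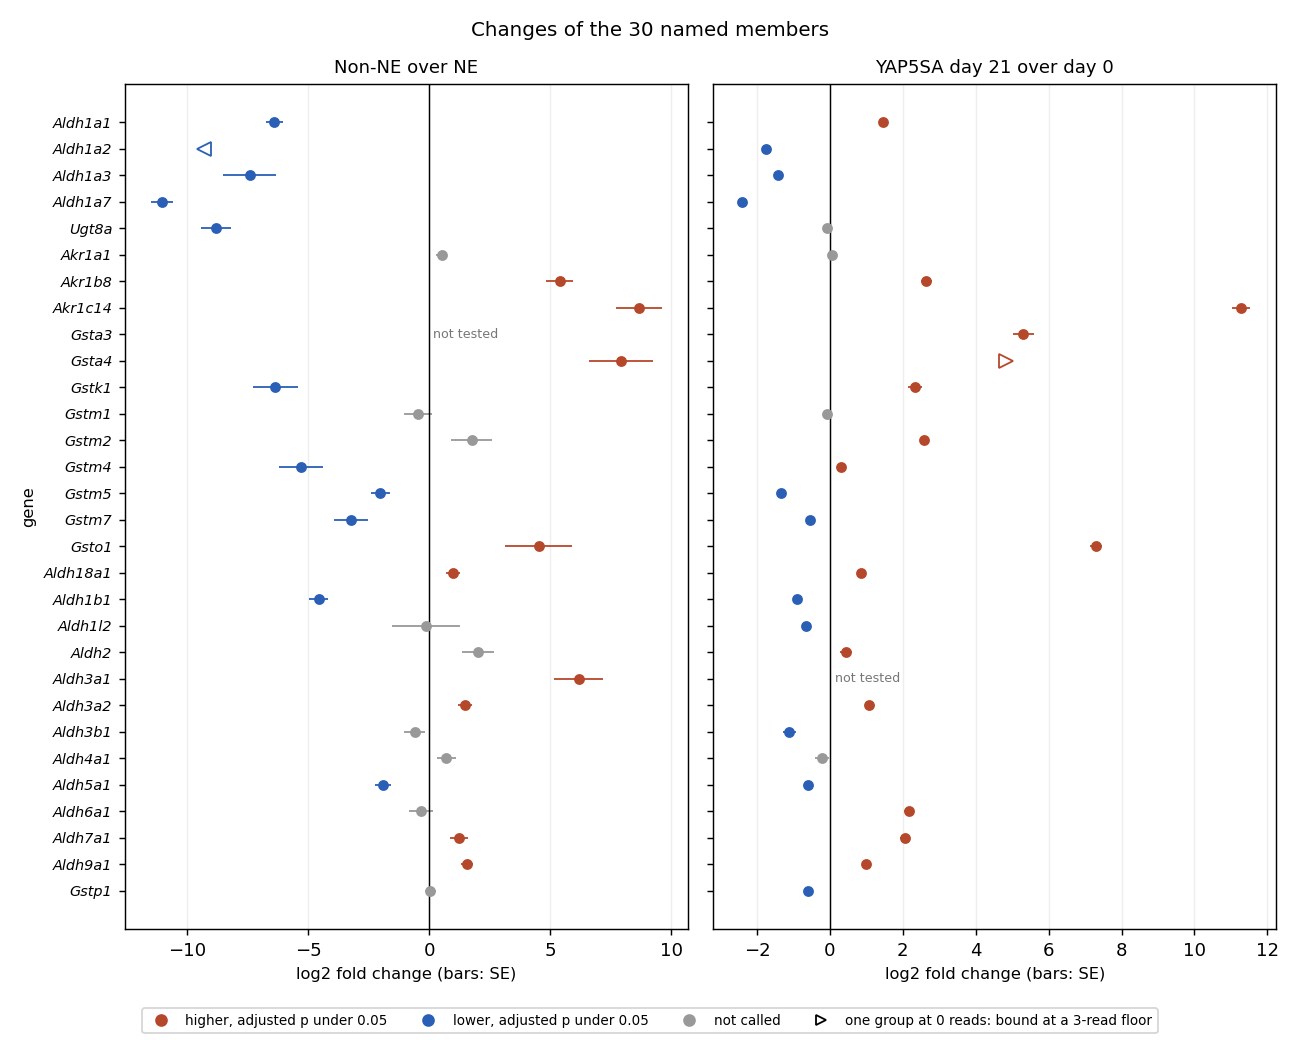
Log2 changes with SE of the 30 named members in Non-NE over NE (left) and YAP5SA day 21 over day 0 (right), in edgeR, with called genes in colour and open triangles at the 3-count bound where a group is at 0 reads. For genes with 1 to 3 counts in a group the point depends on the prior count of the fit. The comparisons share reads through NE replicate 2 and day 0 replicate 1. Among genes called in both panels, Aldh1a1, Gstk1 and Gstm4 lie left of 0 in the left panel and right of it in the right panel.

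Genes of the same pathways outside the rule were counted by list. Of 25 genes of the NRF2 pathway and its antioxidant targets, 24 were tested between Non-NE and NE cells, with 10 higher and 2 lower in Non-NE, or 50% against the 42.8% called among all genes. At day 21, 13 of 25 were higher and 6 lower than at day 0, or 76% against 71.7% of all genes. Osgin1, a stress-response target of NRF2, had 28.6, 20.3 and 40.2 CPM in Non-NE libraries, against 0.0966, 0.109 and 0.213 CPM in NE libraries (edgeR adjusted p = 0.000103), and 10.1 and 11.04 CPM at day 21, against 0.0937 and 0.185 CPM at day 0 (edgeR adjusted p = 2.17e-13). Hmox1, heme oxygenase, was 3.09-fold higher in Non-NE than in NE cells and 3.08-fold higher at day 21 than at day 0. Gclc, the catalytic subunit of glutathione synthesis, was 1.64-fold lower at day 21 (edgeR adjusted p = 2.58e-09), and Nfe2l2, which encodes NRF2, was 1.25-fold higher (edgeR adjusted p = 0.000359).

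Of the genes for retinoid metabolism and response, 6 were higher and 3 lower in Non-NE cells among 19 tested, and 7 were higher and 7 lower at day 21 among 18 tested. These shares, 47.4% and 77.8%, are near the 42.8% and 71.7% called among all genes. Stra6, the retinol importer, had 0.165, 0.488 and 0.849 CPM in Non-NE libraries, against 11.3, 15.75 and 49.6 CPM in NE libraries (48.6-fold lower, edgeR adjusted p = 0.00225), and Rbp4, the retinol carrier, was 60.2-fold lower (edgeR adjusted p = 5.14e-05). Both were also lower at day 21 than at day 0, Stra6 by 3.28-fold and Rbp4 by 5.93-fold. Their last steps differed: at day 21 against day 7 Stra6 was called higher and Rbp4 lower. In the other direction, the retinoic acid receptor Rarg had 252, 98.3 and 151.5 CPM in Non-NE libraries, against 6.76, 15.75 and 7.56 CPM in NE libraries (16.1-fold higher, edgeR adjusted p = 0.00111), and Cyp26b1, which degrades retinoic acid, had 24.6 and 29.2 CPM at day 21, against 0.469 and 0.648 CPM at day 0 (47.9-fold higher, edgeR adjusted p = 5.05e-16).

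Among alcohol dehydrogenases and carbonyl reductases 7 of 13 were higher and 1 lower in Non-NE cells (61.5% called, against 42.8% of all genes), and 10 of 14 higher and 1 lower at day 21 (78.6%, against 71.7% of all genes). Adh7, a retinol and ethanol dehydrogenase of epithelia, had 204, 40.05 and 65.5 CPM in Non-NE libraries and was at 0.0966, 0.109 and 0.106 CPM in NE libraries, and it stayed low in YAP5SA libraries, with 0 to 0.476 CPM for Adh7 and 0 to 0.583 CPM for Aldh3a1. Of the oxidation and aryl hydrocarbon receptor genes, 8 of 14 were higher and 2 lower in Non-NE cells (71.4% called), and 13 of 18 higher and 1 lower at day 21 (77.8%). Cyp1b1 had 423, 874 and 528 CPM in Non-NE libraries, against 0.579, 0.219 and 0.213 CPM in NE libraries (edgeR adjusted p = 4.09e-05), and 82.9 and 86.7 CPM at day 21, against 0.188 and 0.37 CPM at day 0 (edgeR adjusted p = 2.7e-21). Transporters of drugs and conjugates gave 6 of 11 higher and 1 lower in Non-NE cells (63.6% called), and 9 of 13 higher and 3 lower at day 21 (92.3%), with Slco2a1, a prostaglandin carrier, at least 1070-fold higher at day 21 than at day 0. Other genes of glutathione synthesis and transfer gave 6 of 19 higher and 3 lower in Non-NE cells, and 8 of 19 higher and 6 lower at day 21, shares of 47.4% and 73.7% that are near those of all genes. Genes for sulfation, acetylation, methylation and UDP-glucuronate supply gave 6 of 12 higher and 2 lower in Non-NE cells (66.7% called), and 5 of 13 higher and 4 lower at day 21 (69.2%). Papss2, which makes the sulfate donor, had 70.1, 20.9 and 30.4 CPM in Non-NE libraries, against 0, 0.109 and 0.213 CPM in NE libraries, while the sulfotransferase Sult2b1 had 0.165, 0 and 0 CPM in Non-NE libraries, against 31.96, 50.2 and 20.3 CPM in NE libraries (edgeR adjusted p = 0.000495 for Papss2 and 0.000295 for Sult2b1).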

How the data were processed

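The submitters' processing notes name STAR 2.4.2, featureCounts and the mm10 build. How strand and multi-mapping reads were handled is not given in the sources used here, so overlapping and near-identical genes are uncertain. The authors deposited raw counts in whole numbers for 32926 symbols and 14 libraries, all used. Counts were scaled by TMM and genes with low counts removed with filterByExpr. edgeR 4.0.16 (R 4.3.3) gave the main test, its quasi-likelihood F test with robust dispersions. P-values were adjusted by Benjamini-Hochberg over every gene tested, and an adjusted p under 0.05 is a call. The Non-NE and NE groups were fitted in their 6 libraries, the days in their 8, and day 21 against Non-NE in all 14. The biological coefficients of variation were 0.399, 0.0548 and 0.293. The fit of all 14 thus takes a smaller spread for Non-NE and NE libraries than they showed alone. Its p-values for these libraries can be too small. Alternatives were DESeq2 1.42.0 size factors and test, library totals, no count filter, a replicate block, all 14 libraries and each library left out.

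The 95% intervals are exact and cover counting error only. Where a group had no read, the bound takes 3 counts as its limit and includes no error of the other group. Exon lengths and 50-base transcript windows came from GENCODE M21, in which all 78 members have a position, and open reading frames were the longest of each gene, aligned with Biopython. Members, related lists and tests were chosen with earlier results of these data known. Library values were given for called members whose higher group had 10 CPM or more, and for members of at least 100 CPM. The called ones were up to 10 each way in Non-NE against NE and in day 21 against day 0, and 5 elsewhere. For some of these genes only some groups were shown, and for Gstm1, Aldh3b1 and Aldh4a1 only changes or calls. A few other members were named after their values were seen, to account for every called member.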

Additional observations from a re-analysis of the deposited data

How the results depend on the processing

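Among the 30 named members, no called value changed direction under the alternatives run. The direction of other members and of related genes was not checked in this way. In 1 fit of all 14 libraries, whose coefficient of variation was 0.293 instead of 0.0548, the members called fell to 1 at day 3 against day 0 (main value 25), 12 at day 7 against day 0 (31), 4 at day 7 against day 3 (27) and 2 at day 21 against day 7 (24), and to 21 at day 21 against day 0 (31), while Non-NE against NE had 31 (21). All genes called were then 1041, 4589, 1281, 515 and 4586 for those days and 8997 for Non-NE against NE, against 6804, 9932, 7785, 7042, 10032 and 5554. Leaving out each library gave 19 to 22 members for Non-NE against NE, 19 to 25, 28 to 32 and 29 to 32 for days 3, 7 and 21 against day 0, 24 to 27 for day 7 against day 3, 20 to 27 for day 21 against day 7 and 18 to 27 for day 21 against Non-NE. For Non-NE against NE, all genes called ran from 4483 to 5570 in these fits. Library totals in place of TMM moved the median of all genes by -0.255 (Non-NE against NE), -0.202 (day 7), -0.143 (day 21) and 0.174 (day 21 against Non-NE) on the log2 scale. Replicate numbers are only shared: with the replicate number as a block the members called were 22 for Non-NE against NE, 24, 31 and 31 for the days against day 0, 26, 24 and 24 in the other comparisons, and the correlation of same-numbered deviations ran from -0.121 to 0.05. With the day 21 numbers crossed, an alternative chosen after seeing the data, 25 members were called at day 21 against day 7.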
